A study of Mus musculus with 6 samples.

Results

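The unfolded protein response and endoplasmic reticulum (ER) chaperone genes described here are 40 mouse genes of the 48440 in the count table. They were taken by name, with no measured value in the rule: the sensors and transcription factors of ER stress, the folding enzymes of the ER lumen, the enzymes that dispose of misfolded proteins, and a few genes of protein entry and recovery. All 40 were found in the table by their gene IDs. After a filter on low counts, 14811 genes were tested, and 39 of the 40 were among them. The exception was Derl3, a derlin of the ER membrane, with 9, 11 and 8 counts in the Ad-Cre-GFP libraries and 6, 8 and 5 counts in the Ad-GFP libraries. The other 39 were well above the filter in both groups: their lowest value in any library was 4.31 CPM (counts per 1e+06 counts of a library, after TMM scaling), for Ero1lb in an Ad-Cre-GFP library.

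The cells were mouse ovarian surface epithelial cells, the layer that covers the ovary, and their poly(A) RNA was read as bulk RNA-seq 1 week after adenoviral transduction. One group received an adenovirus with Cre recombinase and GFP (Ad-Cre-GFP, labelled as a knockout of Lats1 and Lats2, 3 libraries). The other received an adenovirus with GFP alone (Ad-GFP, labelled as wild type, 3 libraries), so virus and GFP were common to both groups. LATS1 and LATS2 are the core kinases of the Hippo pathway. Adenoviral Cre acts only in cells that the virus enters; the sources used here give neither the share of such cells, nor the alleles of the Ad-GFP cells, nor the strain and age of the mice.

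The ER folds secreted and membrane proteins, and the unfolded protein response adjusts its capacity to the load. Sensors in the ER membrane are thought to be held quiet by the chaperone BiP (Hspa5). When misfolded proteins accumulate, IRE1 (Ern1) splices the mRNA of the transcription factor XBP1, PERK (Eif2ak3) phosphorylates the initiation factor eIF2alpha and favours translation of ATF4, and ATF6 is cut in the Golgi to release a transcription factor. ATF6 and spliced XBP1 raise chaperones, disulfide isomerases and the ER-associated degradation machinery, which returns misfolded proteins to the cytosol for the proteasome. Gene counts do not separate spliced from unspliced Xbp1 mRNA, nor do they show phosphorylation or cleavage, so the values below are mRNA levels only.

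The libraries held 27734527 to 30304033 counts in the Ad-Cre-GFP group and 18690235 to 25363462 counts in the Ad-GFP group, so every Ad-Cre-GFP library was the deeper. The groups lay apart on the first principal component (89.5% of variance), and library 3 of Ad-GFP stood apart from the other Ad-GFP libraries on the second (3.15%). Lats1 (chromosome 10, 7681214 to 7716460, GRCm38) had 38.6, 36.0 and 36.6 CPM in the Ad-Cre-GFP libraries, against 159, 151 and 168 CPM in the Ad-GFP libraries, a log2 fold change of -2.10 ± 0.04 (SE; edgeR adjusted p = 5.79e-20). Lats2 (chromosome 14, 57689662 to 57758388) had 98.8, 101 and 96.7 CPM in the Ad-Cre-GFP libraries, against 127, 131 and 131 CPM in the Ad-GFP libraries, a log2 fold change of -0.39 ± 0.03 (SE; edgeR adjusted p = 3.82e-10). These are counts over whole genes, and the sources used here do not name the exons that Cre removes. Lats2 also shares 2955 bases (42.4%) of its exons with the gene model Gm49361 on the same strand, which held 0 counts. The sources do not say how reads in shared exons were counted, so the Lats2 value is uncertain. All 12 markers of ovarian surface epithelium and mesothelium were tested. Of these, 5 rose and 7 fell, 4 of them by at least 2-fold, with log2 fold changes from -1.60 to 1.93. Their summed level was 3985 to 4053 CPM in Ad-Cre-GFP and 3978 to 4022 CPM in Ad-GFP libraries. This near-equal sum hides opposite changes. Cdh2 had 24381, 24494 and 22597 counts in the Ad-Cre-GFP libraries, against 4701, 5580 and 4083 in the Ad-GFP libraries. Krt19 had 5475, 5311 and 5234 counts, against 12099, 14590 and 10510. Summed markers of other cells were 6.83 to 7.36 CPM in Ad-Cre-GFP and 11.2 to 13.6 CPM in Ad-GFP libraries for 8 immune and plasma cell genes, with Adgre1 at 0. They were 9.88 to 11.2 CPM in Ad-Cre-GFP and 3.05 to 3.08 CPM in Ad-GFP libraries for 5 endothelial genes, with Tie1 at 0, and 2.99 to 4.08 CPM in Ad-Cre-GFP and 3.26 to 3.85 CPM in Ad-GFP libraries for 5 granulosa genes, with Fshr and Cyp19a1 at 0. For 5 fibroblast genes, with Lum at 0, they were 271 to 291 CPM in Ad-Cre-GFP and 380 to 398 CPM in Ad-GFP libraries, and for 4 oviduct genes 2.64 to 2.93 CPM in Ad-Cre-GFP and 3.43 to 4.59 CPM in Ad-GFP libraries. Within the endothelial sum the higher values lay in Kdr and Flt1. Kdr had 58, 64 and 51 counts in the Ad-Cre-GFP libraries, against 2, 2 and 0 in the Ad-GFP libraries. Flt1 had 234, 269 and 231 counts, against 60, 68 and 55. Pecam1 and Cdh5 had at most 8 counts in any library. The granulosa sum also hides opposite changes. Foxl2 had 22, 28 and 13 counts in the Ad-Cre-GFP libraries, against 1, 8 and 1 in the Ad-GFP libraries. Amh had 69, 59 and 51 counts, against 19, 26 and 16, and Inha had 30, 27 and 19, against 63, 61 and 44. All 4 tested fibroblast genes fell, with log2 fold changes from -3.98 to -0.16 and a median of -1.94. The part of all these marker differences in the results below was not tested.

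ER stress and folding genes were mostly lower after Cre. Of the 39 tested, 34 fell (87.2%), 3 rose and 2 passed in neither direction, at a Benjamini-Hochberg adjusted p under 0.05 over all tested genes. Among all 14811 tested genes, 69.8% passed in either direction, 35.8% fell and 34% rose. The genes that rose were Atf6, Creb3 and Ppp1r15a, and those that passed in neither direction were Canx and Creld2. The median log2 fold change of the 39 was -0.38, against -0.01 for all tested genes, and the values ran from -1.21 for Ern1 to 0.49 for Ppp1r15a. Most of the decreases were under 2-fold: Ern1, Dnajb9, Xbp1, Edem2 and Creb3l2 fell by at least 2-fold, 5 of 39 (12.8%) against 7.56% of all tested genes. In bulk RNA, fewer cells of one type and less RNA per cell cannot be told apart.

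Nearly all of the 39 genes were abundant, so a filter on level changes the background but hardly the genes described. In 37 of the 39 the 3 Ad-Cre-GFP values lay wholly above or wholly below the 3 Ad-GFP values, against 73% of all tested genes. This count includes the 3 genes that rose. Among genes with a mean of at least 20 CPM it was 36 of 38, against 82.5% of all tested genes at that level. Of the 39, 38 had a mean of at least 20 CPM; 33 of these fell and 3 rose, whereas 38.5% of all 7638 tested genes at that level fell and 41.9% rose. Together the 40 genes took 1.03%, 1.03% and 1.04% of all counts in the Ad-Cre-GFP libraries, against 1.38%, 1.43% and 1.40% in the Ad-GFP libraries, so that the share after Cre was 73.8% of that with GFP alone. The groups did not overlap in this share. The genes were chosen with earlier results of these data known, so their joint direction was given no test of its own.

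**Figure D1:**
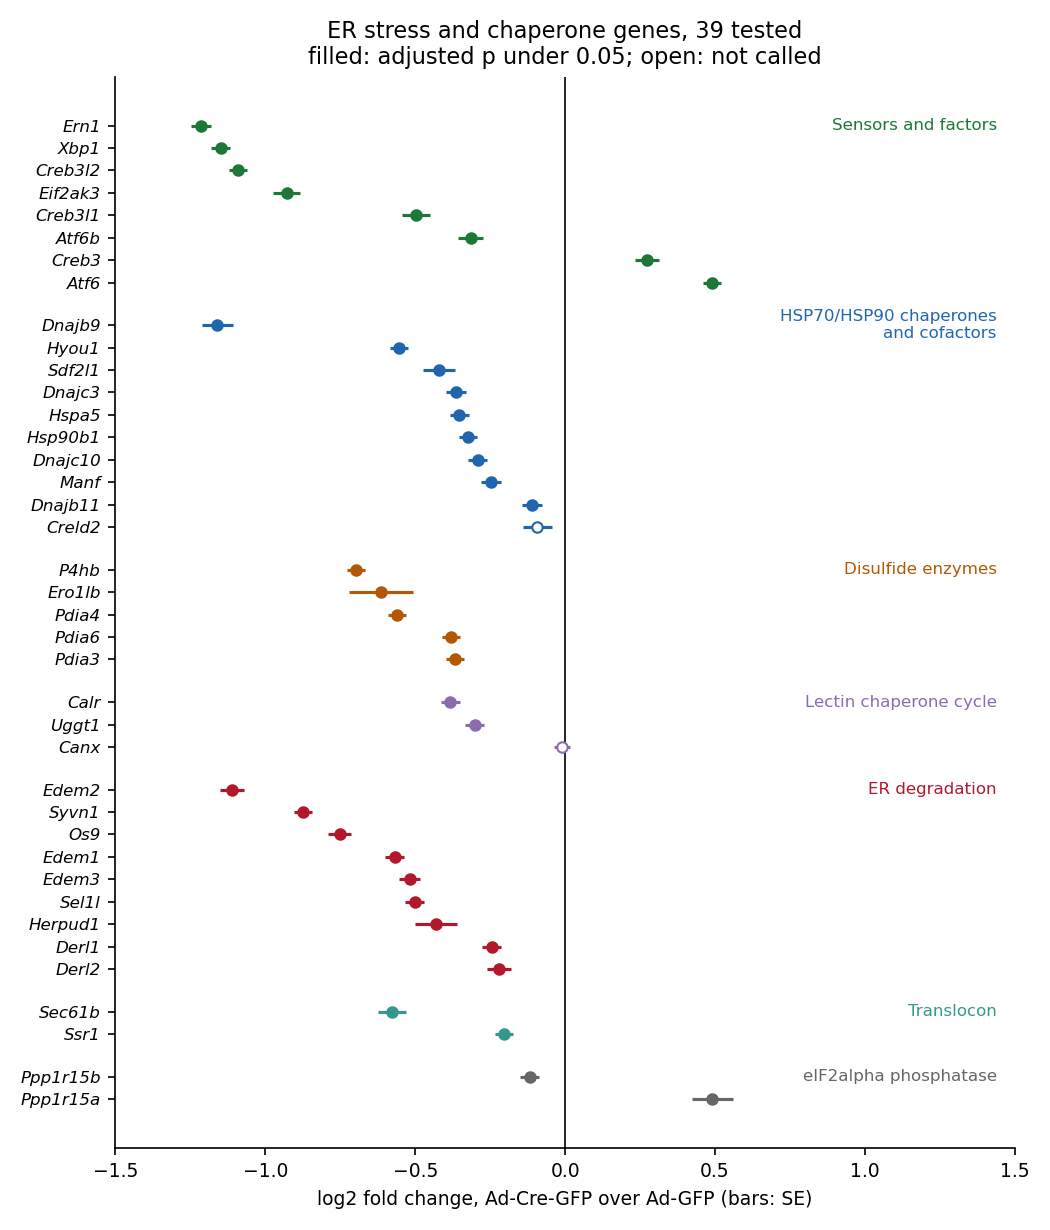
Log2 fold change of the 39 tested genes, Ad-Cre-GFP over Ad-GFP, in blocks by role (n = 3 libraries per group, bars are SE). Points left of 0 are lower in Ad-Cre-GFP; 34 filled points lie left of 0 and 3 right of it, and the open points are Canx and Creld2.

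**Figure D2:**
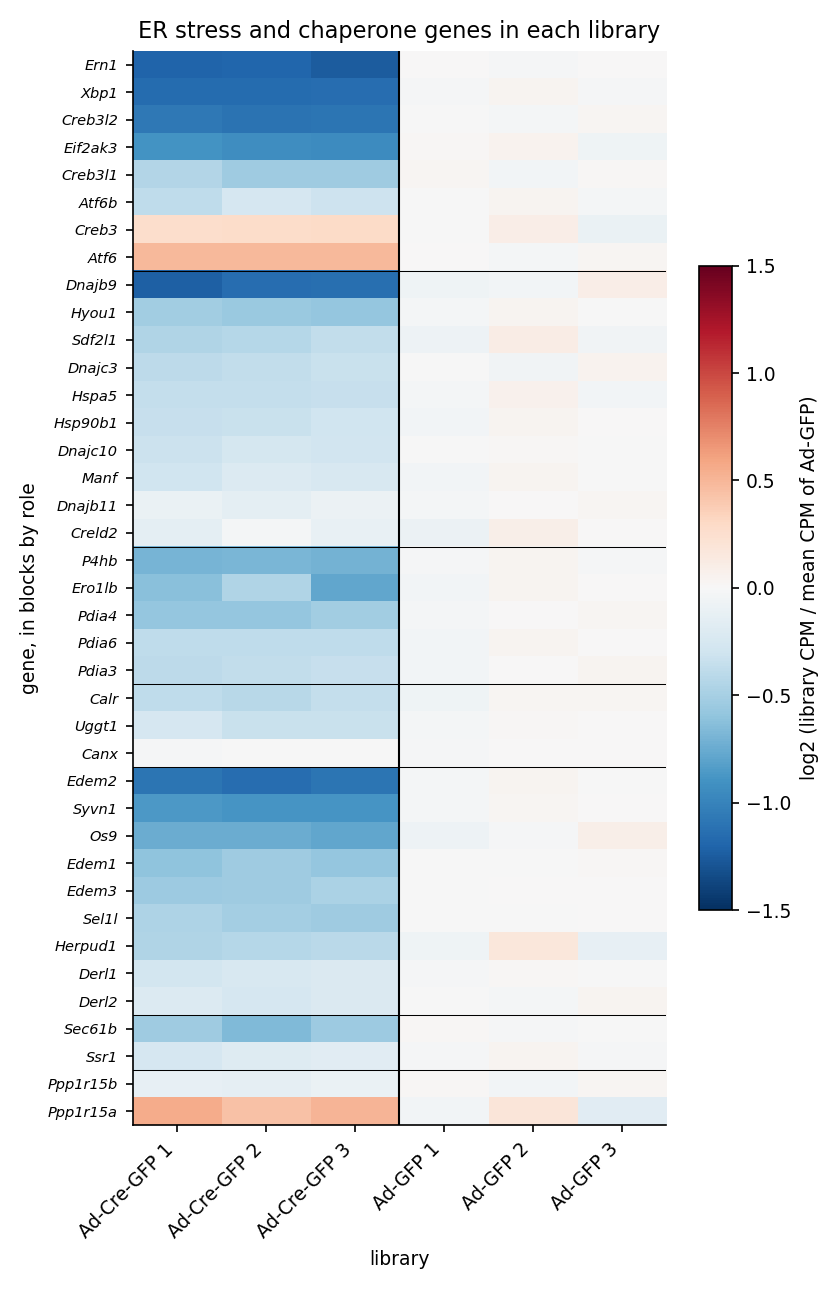
Each library's CPM over the mean CPM of the Ad-GFP libraries, on a log2 scale, for the 39 tested genes in blocks by role. The Ad-Cre-GFP columns are blue in nearly every row and alike among themselves; Atf6, Creb3 and Ppp1r15a are red, and Canx is near white.

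The promoters show what some of these genes share in sequence. ATF6 is known to act through the ER stress response element (ERSE), whose letters are CCAAT and CCACG separated by 9 bases of any kind, and through ERSE-II, whose letters are ATTGG and CCACG separated by 1 base. XBP1 is known to bind the unfolded protein response element TGACGTGG, and all of these elements hold the letters CCACG on one strand. RefSeq promoters (GRCm38.p6, 250 bases before to 50 after the transcript start) were searched on both strands for exactly these letters, and 34 of the 40 genes had an entry. Those with no entry were Atf6, Creb3l1, Hyou1, Manf, Derl1 and Ppp1r15b. An ERSE was found in promoters of 10 of the 34 genes (29.4%). It was found in those of 37 of all 27025 genes with an entry (0.137%) and 17 of the 9870 tested genes with an entry (0.172%). These counts include the genes described here, which make up 10 of the 37 and 9 of the 17. A gene with more than 1 entry was counted once. Tested genes outside the 40 were matched to entries by symbol only, so some may be left out. The element was first described in promoters of ER chaperones, Hspa5 among them, so its presence there is a description and not independent evidence. The matches are shown 5′ to 3′ on the strand that carries them, with the CCAAT and CCACG letters in capitals.
Hspa5: CCAATcggaggcctCCACG
Syvn1: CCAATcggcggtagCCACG
Pdia6: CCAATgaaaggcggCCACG
Dnajc3: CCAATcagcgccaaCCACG
Calr: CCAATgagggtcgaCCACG
Ero1lb: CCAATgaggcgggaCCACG
Canx: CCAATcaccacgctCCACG
Creld2: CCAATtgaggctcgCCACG
Derl3: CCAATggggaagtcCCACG
Hsp90b1, upstream match: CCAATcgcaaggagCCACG
Hsp90b1, downstream match: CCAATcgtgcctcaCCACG

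In Hspa5 the ERSE lay 65 to 47 bases before the start (chr2:34772025-34772043, plus strand), and in Syvn1 it lay 44 to 26 bases before it (chr19:6046532-6046550, plus strand). In Canx it lay 145 to 127 bases before the start (chr11:50325800-50325818, minus strand). Hsp90b1 was the only gene of the 34 with a pair of exact matches (chr10:86705638-86705656, minus strand, and chr10:86705533-86705551, plus strand). Near matches were not counted in any gene, Hspa5 included. The others were in Pdia6 (chr12:17266491-17266509, plus strand), Dnajc3 (chr14:118937827-118937845, plus strand), Calr (chr8:84847075-84847093, plus strand), Ero1lb (chr13:12565682-12565700, minus strand), Creld2 (chr15:88819520-88819538, minus strand) and Derl3 (chr10:75893242-75893260, minus strand). ERSE-II was found in Dnajb11 (chr16:22857852-22857862, plus strand) and Herpud1 (chr8:94386377-94386387, plus strand). That is 2 of the 34 genes, against 12 of all 27025 genes and 8 of the 9870 tested genes, counts that include these 2.
Herpud1: ATTGGgCCACG
Dnajb11: ATTGGcCCACG

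The 250 bases before the start are printed for 3 genes, with the ERSE in capitals. They are Hspa5, which encodes the chaperone that holds the sensors; Syvn1, the gene with an ERSE that fell furthest; and Canx, a gene with an ERSE that did not pass the test. Their places are chr2:34771840-34772089 on the plus strand for Hspa5, chr19:6046326-6046575 on the plus strand for Syvn1 and chr11:50325674-50325923 on the minus strand for Canx (GRCm38.p6).
Hspa5: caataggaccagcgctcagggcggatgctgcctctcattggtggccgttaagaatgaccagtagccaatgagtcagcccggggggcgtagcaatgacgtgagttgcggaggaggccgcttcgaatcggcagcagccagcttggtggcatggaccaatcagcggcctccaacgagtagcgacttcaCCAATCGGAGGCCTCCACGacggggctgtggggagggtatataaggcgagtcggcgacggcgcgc
Syvn1: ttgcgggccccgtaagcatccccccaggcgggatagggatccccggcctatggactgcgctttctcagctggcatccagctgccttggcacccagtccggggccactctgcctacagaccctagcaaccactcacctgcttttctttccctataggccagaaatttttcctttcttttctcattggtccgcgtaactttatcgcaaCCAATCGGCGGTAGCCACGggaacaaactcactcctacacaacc
Canx: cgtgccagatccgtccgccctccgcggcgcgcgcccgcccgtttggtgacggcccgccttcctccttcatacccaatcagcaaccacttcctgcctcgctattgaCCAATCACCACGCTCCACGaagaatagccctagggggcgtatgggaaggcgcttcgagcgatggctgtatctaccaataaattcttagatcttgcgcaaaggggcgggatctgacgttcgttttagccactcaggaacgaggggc

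Genes with and without an exact ERSE match in the searched window were both mostly lower. Near matches were not counted, so genes listed here as having no ERSE may hold a similar element. Of the 10 genes with an ERSE, 9 were tested, 7 fell and none rose, with a median log2 fold change of -0.36. Of the 24 genes with a promoter entry and no ERSE, 22 fell and 2 rose, with a median of -0.51. The difference between these medians was not tested. Of all tested genes, 35.8% fell and 34% rose. Canx and Creld2, the genes that did not pass, both have an ERSE. Within the ERSE genes the values ran from -0.87 for Syvn1 to -0.01 for Canx. The unfolded protein response element TGACGTGG was in the promoters of none of the 34 genes. It was in those of 193 of all 27025 genes (0.714%) and 104 of the 9870 tested genes (1.05%). This says only that these letters are not in the windows of the 34 genes. The short CCACG letters alone, which every ERSE, ERSE-II and TGACGTGG holds too, were in promoters of 26 of the 34 genes (76.5%). They were in those of 52.3% of the 9870 tested genes and 35.5% of all 27025 genes.

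**Figure D3:**
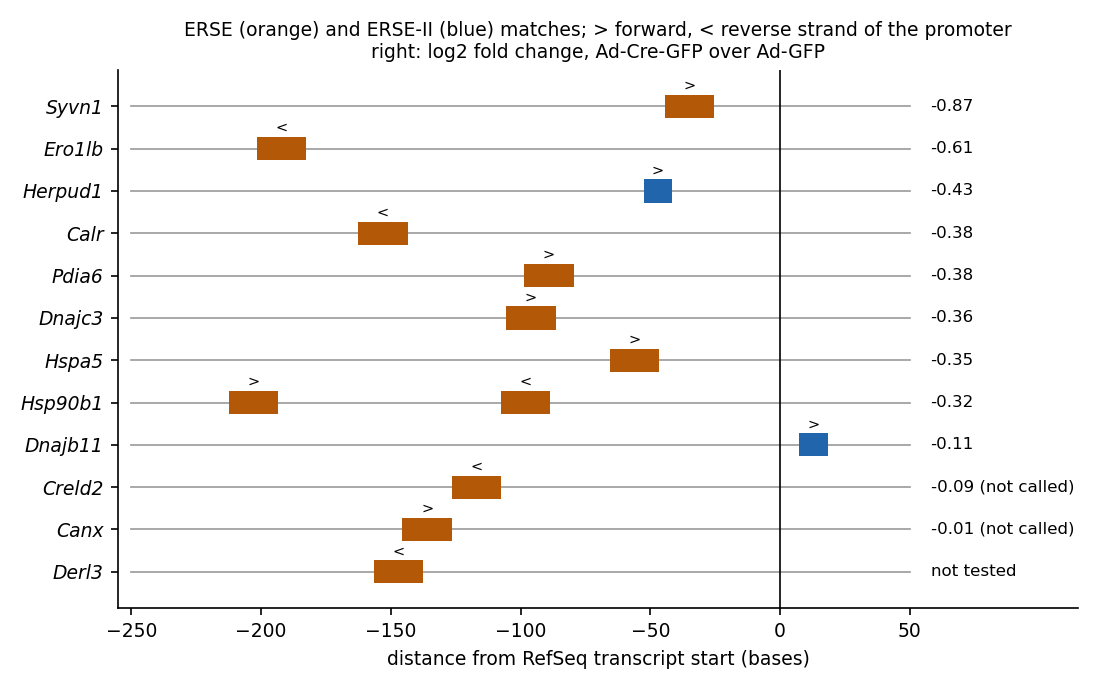
Places of exact ERSE (orange) and ERSE-II (blue) matches in the promoters of 12 genes, as distance in bases from the RefSeq transcript start, with each gene's log2 fold change at the right. Genes are ordered by that value, from Syvn1 to Canx, with Derl3 (not tested) last; most matches lie before the start, that of Dnajb11 after it.

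Beside the counts of each role group below stand the shares of all tested genes, of which 35.8% fell and 34% rose. Among the sensors and transcription factors, 6 of 8 fell and 2 rose, with a median log2 fold change of -0.71. The group was split in direction: of the 3 sensor genes, Ern1 and Eif2ak3 fell and Atf6 rose. Ern1 (chromosome 11, 106394650 to 106487852, GRCm38), which encodes the sensor and RNase IRE1, had 66.9, 67.4 and 65.0 CPM in the Ad-Cre-GFP libraries, against 154, 153 and 155 CPM in the Ad-GFP libraries. Its Ad-Cre-GFP level was 43.1% of the Ad-GFP level, with a log2 fold change of -1.21 ± 0.03 (SE; edgeR adjusted p = 1.47e-18). Xbp1 (chromosome 11, 5520659 to 5525893), whose mRNA IRE1 splices, had 78.8, 78.8 and 79.3 CPM in the Ad-Cre-GFP libraries, against 173, 179 and 173 CPM in the Ad-GFP libraries. It fell to 45.1% of the Ad-GFP level, a log2 fold change of -1.15 ± 0.03 (SE; edgeR adjusted p = 3.02e-18), and the 3 libraries within each group were close to each other for both genes.

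Eif2ak3 (chromosome 6, 70844515 to 70905245), which encodes the kinase PERK, had 31.6, 30.8 and 30.6 CPM in the Ad-Cre-GFP libraries, against 59.5, 60.9 and 56.3 CPM in the Ad-GFP libraries. All Ad-Cre-GFP values were far below all Ad-GFP values, and the log2 fold change was -0.93 ± 0.04 (SE; edgeR adjusted p = 3.73e-14). Atf6 (chromosome 1, 170704674 to 170867771), the membrane-bound factor of the third branch, went the other way. It had 216, 215 and 216 CPM in the Ad-Cre-GFP libraries, against 154, 149.8 and 157 CPM in the Ad-GFP libraries, a log2 fold change of 0.49 ± 0.03 (SE; edgeR adjusted p = 3.17e-12). Its relative Atf6b, which is cut in the same way but is known as a weaker activator, fell, with a log2 fold change of -0.32 (adjusted p = 8.28e-07).

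The OASIS family of membrane-bound factors, which are released by the same proteases as ATF6, did not move as one. Creb3l2, known for driving secretory capacity in cartilage, had 177, 173 and 174 CPM in the Ad-Cre-GFP libraries, against 371, 364 and 381 CPM in the Ad-GFP libraries. It fell to 46.9% of the Ad-GFP level, with a log2 fold change of -1.09 ± 0.03 (SE; edgeR adjusted p = 2.73e-18). Creb3l1, known for collagen secretion in bone, had a smaller decrease, -0.50 (adjusted p = 3.00e-09). Creb3 rose: it had 102, 102 and 103 CPM in the Ad-Cre-GFP libraries, against 84.0, 90.5 and 79.1 CPM in the Ad-GFP libraries, a log2 fold change of 0.27 ± 0.04 (SE; edgeR adjusted p = 3.59e-06). Its values by library are given because of its direction, seen in the data. Creb3 shares 360 bases (15.2%) of its exons with Tln1 on the opposite strand, a gene with 118285 counts against 14512 for Creb3 and a log2 fold change of 0.48; the sources used here do not say whether reads were counted by strand, so the Creb3 value is uncertain.

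The HSP70 and HSP90 chaperones of the ER and their cofactors all lay below 0. Of 10 genes, 9 fell, none rose and Creld2 did not pass, with a median log2 fold change of -0.34. Dnajb9, which encodes the BiP cofactor ERdj4 and is known as a target of XBP1, had 24.4, 25.9 and 26.1 CPM in the Ad-Cre-GFP libraries, against 54.5, 55.2 and 61.3 CPM in the Ad-GFP libraries. The groups were far apart and the log2 fold change was -1.16 ± 0.05 (SE; edgeR adjusted p = 1.06e-14). Hyou1, the ER HSP70-like exchange factor of BiP, had 464, 453 and 449 CPM in the Ad-Cre-GFP libraries, against 655, 687 and 663 CPM in the Ad-GFP libraries, a log2 fold change of -0.55 ± 0.03 (SE; edgeR adjusted p = 3.43e-13). Dnajc3, which encodes the cofactor p58IPK, known to restrain PERK, had 167, 169.5 and 174 CPM in the Ad-Cre-GFP libraries, against 219, 212 and 227 CPM in the Ad-GFP libraries. Its log2 fold change was -0.36 ± 0.03 (SE; edgeR adjusted p = 1.39e-09).

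Hspa5 (chromosome 2, 34771970 to 34777547), which encodes BiP, the main HSP70 of the ER, had 1110.5, 1109.7 and 1117 CPM in the Ad-Cre-GFP libraries, against 1391, 1489.5 and 1379.9 CPM in the Ad-GFP libraries. The Ad-Cre-GFP libraries were nearly equal and all below the Ad-GFP libraries, where library 2 was the highest. The log2 fold change was -0.35 ± 0.03 (SE; edgeR adjusted p = 1.85e-09), a smaller decrease than in Dnajb9 or Hyou1 of the same group. Hsp90b1, which encodes the ER HSP90 GRP94, changed by -0.32 (adjusted p = 2.86e-09) on the log2 scale. The cofactor Sdf2l1 changed by -0.42 (adjusted p = 2.77e-07), the disulfide-reducing Dnajc10 by -0.29 (adjusted p = 2.77e-08), the secreted stress factor Manf by -0.25 (adjusted p = 5.89e-07) and Dnajb11 by -0.11 (adjusted p = 0.0042). Creld2, a secreted ER stress target, had 43.2, 46.7 and 44.2 CPM in the Ad-Cre-GFP libraries, against 44.7, 50.5 and 47.8 CPM in the Ad-GFP libraries. Its groups overlapped, and its log2 fold change was -0.09 ± 0.05 (SE; edgeR adjusted p = 0.0911). Its values by library are given because of this result, seen in the data. The value depended on single libraries: it was -0.12 (adjusted p = 0.0497) without Ad-Cre-GFP library 2 and -0.14 (adjusted p = 0.0223) without Ad-GFP library 1, the only alternatives in which it passed. It was -0.06 (adjusted p = 0.372) without Ad-Cre-GFP library 1 and -0.05 (adjusted p = 0.449) without Ad-GFP library 2.

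All 5 disulfide enzymes fell, with a median log2 fold change of -0.56. P4hb (chromosome 11, 120560298 to 120573253), which encodes protein disulfide isomerase and also serves as the beta subunit of prolyl 4-hydroxylase, had 1007, 1020.0 and 999 CPM in the Ad-Cre-GFP libraries, against 1619, 1678 and 1611 CPM in the Ad-GFP libraries. It fell to 61.7% of the Ad-GFP level, a log2 fold change of -0.70 ± 0.03 (SE; edgeR adjusted p = 3.79e-15). Pdia4, which encodes ERp72, had 260.3, 259 and 272 CPM in the Ad-Cre-GFP libraries, against 381, 391 and 396 CPM in the Ad-GFP libraries, a log2 fold change of -0.56 ± 0.03 (SE; edgeR adjusted p = 3.86e-13). No library of one group reached the range of the other in either gene.

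Pdia6, a partner of BiP known to damp IRE1 signalling, had 270.3, 270.0 and 270.1 CPM in the Ad-Cre-GFP libraries, against 341, 362 and 352 CPM in the Ad-GFP libraries. The 3 Ad-Cre-GFP values were almost identical, and the log2 fold change was -0.38 ± 0.03 (SE; edgeR adjusted p = 2.21e-10). Pdia3, which encodes ERp57 and works on glycoproteins with calreticulin and calnexin, had 731, 745 and 754 CPM in the Ad-Cre-GFP libraries, against 932, 962 and 984 CPM in the Ad-GFP libraries. Its log2 fold change was -0.37 ± 0.03 (SE; edgeR adjusted p = 3.46e-10). Ero1lb, an oxidase that recharges disulfide isomerases, was the least abundant of the 39 genes in CPM and had the widest error, -0.61 ± 0.11 (SE; edgeR adjusted p = 2.59e-05). A near-identical gene model, Gm18562, held 113 counts against 913 for Ero1lb.

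In the lectin chaperone cycle, which folds proteins that carry N-linked glycans, 2 of 3 genes fell and the third did not pass. Calr, which encodes the soluble lectin calreticulin, had 1052, 1029 and 1067 CPM in the Ad-Cre-GFP libraries, against 1309, 1396 and 1401 CPM in the Ad-GFP libraries, a log2 fold change of -0.38 ± 0.03 (SE; edgeR adjusted p = 4.56e-10). Uggt1, whose enzyme tags unfinished glycoproteins for another round, had 191, 181 and 181 CPM in the Ad-Cre-GFP libraries, against 223, 229.9 and 228 CPM in the Ad-GFP libraries, a log2 fold change of -0.30 ± 0.03 (SE; edgeR adjusted p = 2.19e-08). Canx (chromosome 11, 50293961 to 50325673), which encodes calnexin, the membrane-bound counterpart of calreticulin, had 811, 820.3 and 824 CPM in the Ad-Cre-GFP libraries, against 817, 828 and 827 CPM in the Ad-GFP libraries. The groups overlapped, and the log2 fold change was -0.01 ± 0.03 (SE; edgeR adjusted p = 0.758). Over the alternatives it ran from -0.02 to 0.01.

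All 9 tested genes of ER degradation fell, with a median log2 fold change of -0.52. Edem2, which encodes a protein that starts mannose trimming of misfolded glycoproteins, had 38.2, 36.8 and 38.2 CPM in the Ad-Cre-GFP libraries, against 79.9, 83.6 and 80.8 CPM in the Ad-GFP libraries. It fell to 46.3% of the Ad-GFP level, a log2 fold change of -1.11 ± 0.04 (SE; edgeR adjusted p = 2.10e-16). Syvn1 (chromosome 19, 6046576 to 6053712), which encodes the ubiquitin ligase HRD1 and whose promoter is printed above, had 100.4, 98.6 and 98.6 CPM in the Ad-Cre-GFP libraries, against 178, 185 and 183 CPM in the Ad-GFP libraries. Its log2 fold change was -0.87 ± 0.03 (SE; edgeR adjusted p = 2.39e-16), and the groups were well separated.

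Os9, which encodes a lectin that hands glycoproteins to HRD1, had 107, 107 and 104 CPM in the Ad-Cre-GFP libraries, against 169.8, 177 and 189.8 CPM in the Ad-GFP libraries, a log2 fold change of -0.75 ± 0.04 (SE; edgeR adjusted p = 9.32e-14). Edem1, a relative of Edem2, had 109.8, 116 and 112 CPM in the Ad-Cre-GFP libraries, against 166, 166 and 169.5 CPM in the Ad-GFP libraries, a log2 fold change of -0.57 ± 0.03 (SE; edgeR adjusted p = 5.99e-13). Both sets of Ad-Cre-GFP values were below all Ad-GFP values. Sel1l, whose protein is the membrane partner of HRD1, changed by -0.50 (adjusted p = 3.96e-12) on the log2 scale, Edem3 by -0.52 (adjusted p = 1.11e-11), and the derlins Derl1 and Derl2 by -0.25 (adjusted p = 3.04e-07) and -0.22 (adjusted p = 4.63e-05). Derl2 shares a short stretch of exon with Mis12 on the opposite strand (7014 counts, log2 fold change 0.23, against 7678 counts for Derl2).

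Herpud1, an HRD1 partner known to respond to both ATF6 and ATF4, was the least even of the degradation genes and is given for that reason, seen in the data. It had 90.6, 92.2 and 93.2 CPM in the Ad-Cre-GFP libraries, against 119, 139 and 114 CPM in the Ad-GFP libraries. Library 2 of Ad-GFP was well above the other Ad-GFP libraries, and the log2 fold change was -0.43 ± 0.07 (SE; edgeR adjusted p = 0.000785). Without Ad-GFP library 2 it was -0.34, and without Ad-GFP library 3 it was -0.49.

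Both translocon genes fell. Sec61b, a subunit of the channel through which new proteins enter the ER, had 34.5, 31.7 and 34.3 CPM in the Ad-Cre-GFP libraries, against 50.7, 49.5 and 49.6 CPM in the Ad-GFP libraries, a log2 fold change of -0.58 ± 0.05 (SE; edgeR adjusted p = 2.38e-10). A near-identical gene model, Gm10320, held 5477 counts against 6206 for Sec61b (93.4% identity, log2 fold change -0.57), so the division of reads between them is uncertain. Ssr1, a subunit of the translocon-associated complex, had 299, 312 and 316 CPM in the Ad-Cre-GFP libraries, against 353, 365 and 351 CPM in the Ad-GFP libraries, a log2 fold change of -0.20 ± 0.03 (SE; edgeR adjusted p = 4.77e-06). The groups did not overlap in either gene.

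The subunits that direct phosphatase to eIF2alpha, and so end the PERK signal, moved apart. Ppp1r15a (chromosome 7, 45522916 to 45526268), which encodes the stress-induced subunit GADD34, had 30.2, 28.0 and 29.4 CPM in the Ad-Cre-GFP libraries, against 20.1, 23.4 and 18.3 CPM in the Ad-GFP libraries, a log2 fold change of 0.49 ± 0.07 (SE; edgeR adjusted p = 3.63e-06). Ppp1r15b, which encodes the constitutive subunit CReP, had 116, 114 and 117 CPM in the Ad-Cre-GFP libraries, against 127, 122 and 128 CPM in the Ad-GFP libraries. Its decrease was small, -0.12 ± 0.03 (SE; edgeR adjusted p = 0.00236), and the groups did not overlap.

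**Figure D4:**
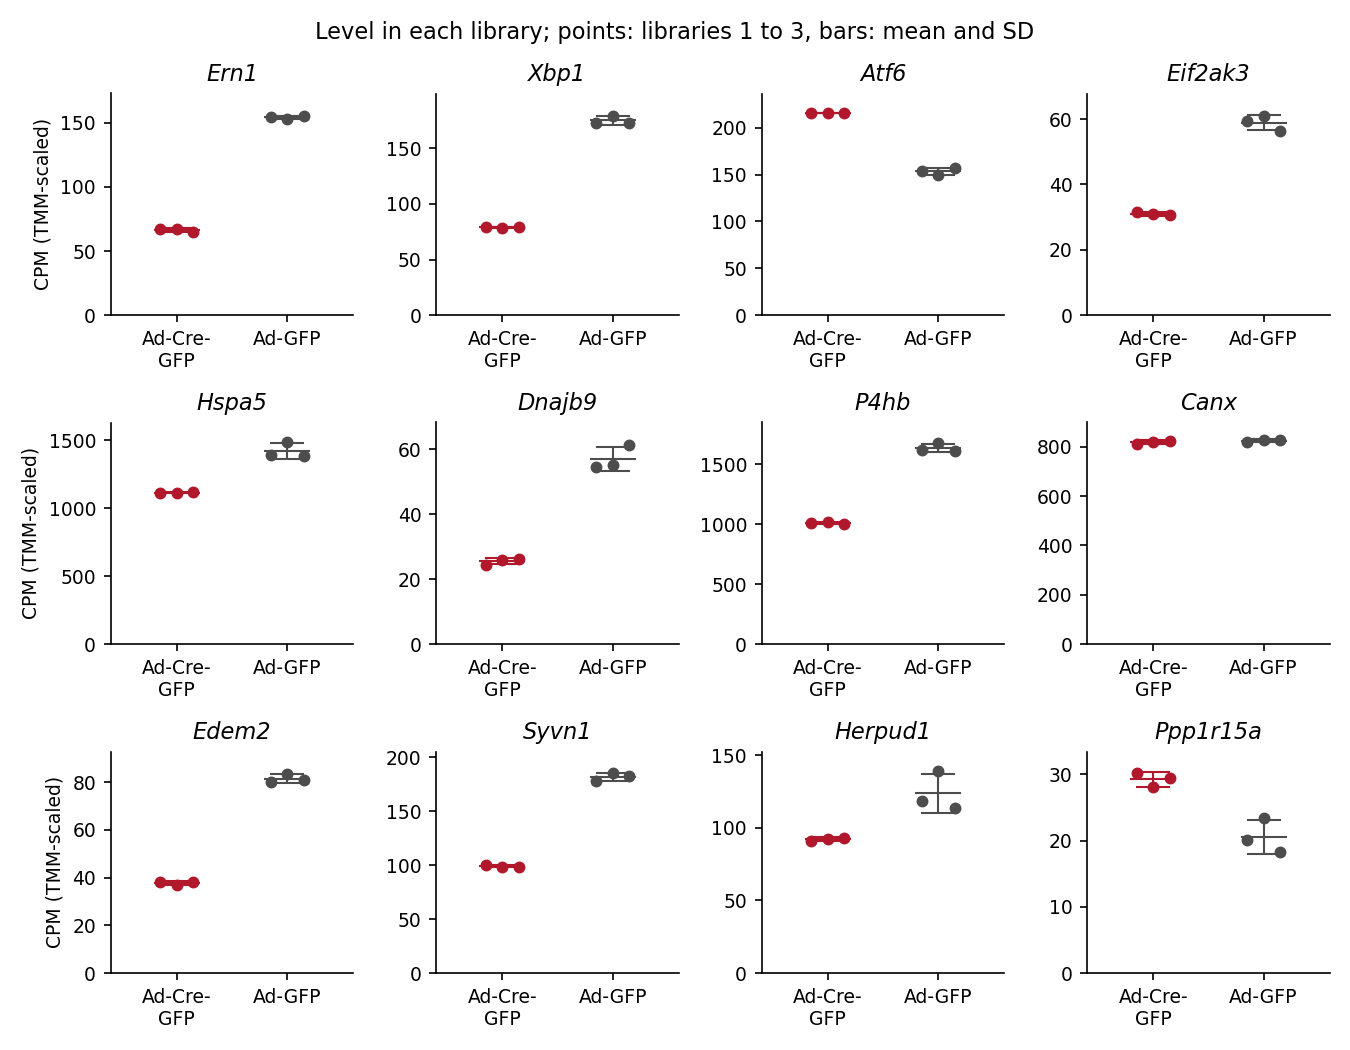
TMM-scaled CPM in each library for 12 of the genes, Ad-Cre-GFP left and Ad-GFP right, with points for libraries 1 to 3 and bars for the mean and SD (axes start at 0). The groups overlap for Canx; Atf6 and Ppp1r15a are higher in Ad-Cre-GFP, and the other 9 genes shown are lower.

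Taken per kilobase of annotated exon, the order of abundance among the folding genes differed between the groups. Per kilobase of exon, P4hb was the highest of the 39 in Ad-GFP cells and the third in Ad-Cre-GFP cells, at 353 CPM per kb in Ad-Cre-GFP and 572 CPM per kb in Ad-GFP. Hsp90b1 was at 435 CPM per kb in Ad-Cre-GFP and 545 CPM per kb in Ad-GFP. On this scale P4hb was below Hsp90b1 in all 3 Ad-Cre-GFP libraries and above it in all 3 Ad-GFP libraries. The crossing depended on the exon lengths used, 2861 bases for P4hb and 4032 for Hsp90b1. These join all annotated exons and are not the lengths of the transcripts present. In CPM, P4hb was below Hsp90b1 in both groups, at 1009 against 1753 in Ad-Cre-GFP and 1636 against 2196 in Ad-GFP. Hspa5, Pdia3 and Canx held ranks 4, 5 and 6 in both groups. Xbp1 ranked 21 in Ad-Cre-GFP and 12 in Ad-GFP.

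The control libraries were not alike at these genes. Among the 39 genes, Ad-GFP library 2 was the highest control for 22, library 3 for 15 and library 1 for 2, and library 1 was the lowest control for 22. These counts were not made over all tested genes, so the pattern may not be particular to the 39. The decreases did not rest on one control: without Ad-GFP library 2 or library 3, 34 genes fell and 3 rose, and without library 1, 35 fell and 3 rose.

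Other genes of the response and of the secretory pathway were read from 8 lists, chosen with earlier results of these data known. Among all tested genes, 35.8% fell and 34% rose. The lists that serve entry, glycosylation and disulfide formation in the ER were mostly lower, like the genes above. Of 17 genes of translocation and signal peptidase, 16 fell, none rose and 1 did not pass (median log2 fold change -0.35). Spcs2, a signal peptidase subunit, changed by -0.70 (adjusted p = 1.58e-12) on the log2 scale, the signal recognition particle receptor gene Srpr by -0.40 (adjusted p = 7.11e-11) and the peptidase catalytic subunit gene Sec11a by -0.44 (adjusted p = 8.60e-10). Of 12 genes of the oligosaccharyltransferase and glycan trimming, 10 fell and 2 rose (median -0.28). Ostc changed by -0.54 (adjusted p = 3.61e-12), and the oligosaccharyltransferase subunits Ddost and Stt3a by -0.45 (adjusted p = 1.67e-11) and -0.43 (adjusted p = 1.55e-11).

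Of 12 further disulfide enzymes, 10 fell, 1 rose and 1 did not pass (median -0.30). The sulfhydryl oxidase gene Qsox1 changed by -0.80 (adjusted p = 7.98e-15), Txndc11 by -0.73 (adjusted p = 7.34e-13) and the retention factor gene Erp44 by -0.61 (adjusted p = 4.13e-12). Ero1l, the gene of the oxidase ERO1-alpha, had 66.7, 74.5 and 72.2 CPM in the Ad-Cre-GFP libraries, against 89.7, 103 and 90.6 CPM in the Ad-GFP libraries, a log2 fold change of -0.41 ± 0.06 (SE; edgeR adjusted p = 3.11e-05). Of 18 further genes of ER degradation, 8 fell (44.4%), 6 rose (33.3%) and 4 did not pass (median -0.06). These shares were not far from those of all tested genes, of which 35.8% fell and 34% rose. Of the 9 degradation genes above none rose, and the difference between these lists was not tested. Ube2g2, a ubiquitin-conjugating enzyme, changed by 0.56 (adjusted p = 1.92e-11), the lectin gene Erlec1 by -0.73 (adjusted p = 3.03e-11) and Vcp, the segregase that pulls proteins from the membrane, by -0.45 (adjusted p = 4.17e-11).

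The lists nearest to the sensors were mixed. Of 10 genes of the PERK, ATF4 and CHOP arm, 3 rose (30%), 3 fell (30%) and 4 did not pass (median 0.08). These shares were near those of all tested genes, of which 34% rose and 35.8% fell. Atf4 had 359, 355 and 356 CPM in the Ad-Cre-GFP libraries, against 320.4, 358 and 287 CPM in the Ad-GFP libraries, a log2 fold change of 0.15 ± 0.08 (SE; edgeR adjusted p = 0.147). The Ad-GFP values were spread more widely than the Ad-Cre-GFP values, and the groups overlapped. Over the alternatives its adjusted p ran from 8.99e-06 to 0.253. Its log2 fold change was 0.23 without Ad-GFP library 2, where the p was the lowest, and 0.07 (adjusted p = 0.108) without Ad-GFP library 3. It also passed with limma-voom (0.0157) and in 3 other alternatives. Ddit3, which encodes CHOP, had 24.9, 25.1 and 24.0 CPM in the Ad-Cre-GFP libraries, against 22.2, 21.9 and 19.7 CPM in the Ad-GFP libraries, a log2 fold change of 0.21 ± 0.06 (SE; edgeR adjusted p = 0.00234). Ddit3 shares 68 bases (3.97%) of its exons with Mars on the opposite strand, a gene with 29102 counts against 3554 for Ddit3. Sesn2, a stress-induced sestrin, changed by 0.40 (adjusted p = 5.14e-07) on the log2 scale, Nupr1 by -0.40 (adjusted p = 7.71e-07) and Vldlr by -0.38 (adjusted p = 3.94e-06). Without Ad-GFP library 2, 5 of the 10 genes rose.

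Of 9 genes of ATF6 processing and IRE1 partners, 5 rose (55.6%) and 4 fell (44.4%), with a median of 0.23. Among all tested genes, 34% rose and 35.8% fell. The proteases that cut ATF6 moved apart. Mbtps1, which encodes the first of them, had 159.7, 158 and 157 CPM in the Ad-Cre-GFP libraries, against 210.4, 205 and 221 CPM in the Ad-GFP libraries, a log2 fold change of -0.42 ± 0.03 (SE; edgeR adjusted p = 1.21e-10). Mbtps2, which encodes the second, had 69.2, 66.6 and 68.7 CPM in the Ad-Cre-GFP libraries, against 53.3, 53.5 and 55.7 CPM in the Ad-GFP libraries, a log2 fold change of 0.33 ± 0.04 (SE; edgeR adjusted p = 9.13e-08). Mbtps2 shares 2867 bases (28.4%) of its exons with Yy2 on the same strand, which held 0 counts, so its value is uncertain. Tram1 changed by -0.39 (adjusted p = 8.09e-10) and Bax, a cell death gene whose protein binds IRE1, by 0.67 (adjusted p = 2.74e-12).

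**Figure D5:**
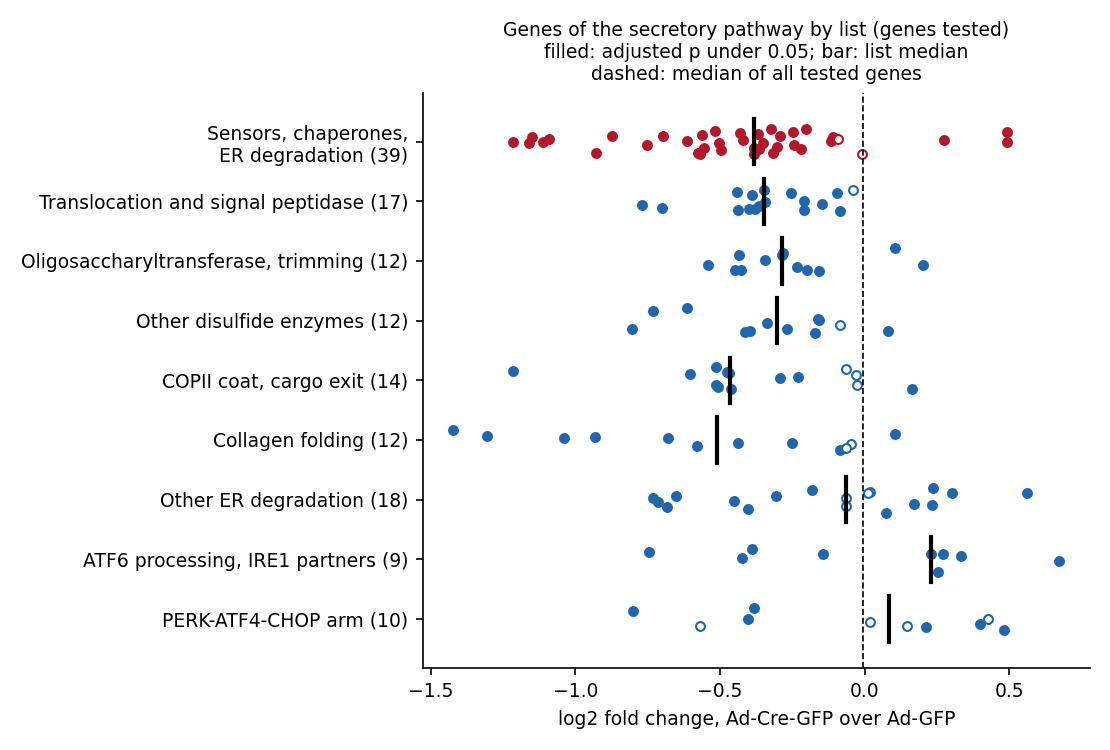
Log2 fold change, Ad-Cre-GFP over Ad-GFP, of each tested gene by list, with filled points for genes that passed the test and a bar at each list's median (number tested in brackets; the dashed line is the median of all tested genes, -0.01). The medians of the folding, entry, glycosylation, exit and collagen lists lie between -0.51 and -0.28, those of the other ER degradation, ATF6 processing and PERK lists between -0.06 and 0.23.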

How the data were processed

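The deposited table holds whole read counts for each gene and library; its headers name files of aligned reads. Kallisto 0.46.2, sleuth 0.30.1 and GRCm38 are named in the submitters' processing notes. The sources used here give no aligner, counter, strand handling or annotation release, so genes with near-identical copies or overlapping exons are uncertain. From those counts, edgeR 4.0.16 (R 4.3.3) was run on all 48440 genes with filterByExpr, TMM scaling and the robust quasi-likelihood test, leaving 14811 genes. A call needed an adjusted p (Benjamini-Hochberg, all tested genes) under 0.05. CPM are TMM-scaled; shares and list sums are unscaled. Symbols and coordinates came from GENCODE mouse release 21 and copies from minimap2 2.31 (at least 200 bases, 90% identity).

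Genes and lists were chosen with earlier results of these data known. Values by library are given for up to 4 genes of each role with the smallest adjusted p and for the sensors. From each other list up to 3 called genes with the smallest adjusted p are named, with Atf4, Ddit3, Mbtps1, Mbtps2 and Ero1l. Genes outside this rule, chosen after their values were seen, are Creb3, Creld2, Herpud1, Sec24a and Serpinh1. Values by library are also printed for Atf4, Ddit3, Mbtps1, Mbtps2, Ero1l, Sec24d, P4ha1 and P4ha2, which the rule only names. They are not printed for Sec31a, Lman1 and Fkbp14 of the COPII and collagen lists. Nothing in the labels shows that replicates are separate cultures, and p-values then cover only a spread between samples that may be technical. Replicate pairs differed by more than sampling noise (chi-square per gene 2.04 to 4.27, against 1). A count of 0 allows up to 3 counts, 0.0990 to 0.161 CPM, for counting error only. Alternatives were other scalings and filters, DESeq2 1.42.0, limma-voom (limma 3.58.1), no robust dispersion, a replicate block, each library left out and, added after seeing the data, libraries thinned to the smallest total.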

Additional observations from a re-analysis of the deposited data

How the results depend on the processing

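The call of 3 genes rising held in all 15 alternatives, and that of 34 falling in all but 2, which left out Ad-Cre-GFP library 2 or Ad-GFP library 1 and gave 35, with Creld2 added. None of the 39 genes lost its call or turned its direction past the threshold in any alternative. Their median log2 fold change ran from -0.42 to -0.37. Over all genes, 4676 to 5593 rose and 4675 to 5437 fell across the alternatives, and no scaling moved the median of all genes by more than 0.02. With the replicate number as a block, 3 of the 39 genes rose and 34 fell, with a median of -0.38, and over all genes 5130 rose and 5348 fell. Deviations of same-numbered libraries correlated at 0.0488, 0.0510 and 0.00502, so the numbers were not taken as pairs, and 2 of the 3 Ad-Cre-GFP libraries correlated best with their own number. Low counts kept Derl3 from being tested.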

Other observations

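Genes of the steps that follow folding were also mostly lower in Ad-Cre-GFP cells. Of 14 genes of the COPII coat and cargo exit, which carry folded proteins from the ER to the Golgi, 10 fell (71.4%), 1 rose and 3 did not pass. Among all tested genes, 35.8% fell and 34% rose. The median log2 fold change of the 14 was -0.47, against -0.01 for all tested genes. Sec24d, a cargo adaptor of the coat, had 83.1, 84.0 and 86.7 CPM in the Ad-Cre-GFP libraries, against 196, 203 and 189.7 CPM in the Ad-GFP libraries, a log2 fold change of -1.21 ± 0.03 (SE; edgeR adjusted p = 3.08e-18). The groups were far apart. The coat subunit gene Sec31a changed by -0.60 (adjusted p = 1.21e-13) on the log2 scale and the cargo receptor gene Lman1 by -0.51 (adjusted p = 6.15e-12). Sec24a, another cargo adaptor, changed by 0.16 (adjusted p = 0.0011), so the adaptors did not share 1 direction.

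Of 12 genes of collagen folding in the ER, 9 fell (75%, against 35.8% of all tested genes), 1 rose and 2 did not pass, with a median of -0.51. The catalytic prolyl 4-hydroxylase subunits work with P4hb. P4ha1 had 191, 193 and 194 CPM in the Ad-Cre-GFP libraries, against 387, 403 and 398 CPM in the Ad-GFP libraries, a log2 fold change of -1.04 ± 0.03 (SE; edgeR adjusted p = 5.00e-18). P4ha2 had 29.9, 30.2 and 31.0 CPM in the Ad-Cre-GFP libraries, against 81.6, 87.1 and 74.5 CPM in the Ad-GFP libraries, a log2 fold change of -1.42 ± 0.05 (SE; edgeR adjusted p = 1.06e-15). Both fell by at least 2-fold, as did the collagen prolyl isomerase gene Fkbp14 (-1.30, adjusted p = 1.72e-15). Serpinh1, which encodes the collagen chaperone HSP47, had 1939, 1966 and 1935 CPM in the Ad-Cre-GFP libraries, against 1780.2, 1912 and 1738 CPM in the Ad-GFP libraries, a log2 fold change of 0.11 ± 0.03 (SE; edgeR adjusted p = 0.00809). Its change was small and in the other direction; without Ad-GFP library 1 it did not pass.

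Beyond the ER stress genes described, an ERSE was found in promoters of 27 other genes, of which 8 were matched by symbol to tested genes. Acacb, Adcy3, Alg12 and Pan2 fell, Zfp57 rose, and 3 did not pass. These names are given because of their calls, seen in the data. Of all tested genes, 35.8% fell and 34% rose, and the calls of these 8 were not compared with those shares by a test. Among the 3 that did not pass, Ptgdr2 and Spats2l were low. Their means were 0.56 and 0.34 CPM in Ad-Cre-GFP and 0.38 and 0.41 CPM in Ad-GFP.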
